A study of Mus musculus with 18 samples.

Results

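The genes described are 10 regulators of oxidative metabolism in mouse muscle fibers, the coactivators Ppargc1a and Ppargc1b, the nuclear receptors Ppara, Ppard, Esrra, Esrrb and Esrrg, the corepressor Nrip1, and the transcription factors Nrf1 and Tfam. All 20 probes listed under these symbols on the array were taken, out of 55681 probe names. Every one of the 10 genes had at least 1 probe, and each probe is reported by itself, since signals of different probes cannot be compared as levels. RNA was measured on 18 Agilent arrays of 1 colour, with 3 arrays for each of 6 groups, namely the nuclear and the cytoplasmic fraction of fibers from the extensor digitorum longus (EDL), the soleus and the tibialis anterior (TA). The mice were wild-type CD1 females of 3 months, with no transgene and no treatment in any group, and each sample was a pool of 5 to 10 fibers. The pools came from 9 mice. EDL and soleus pools were each made from a pair of mice that gave both muscles and both fractions, whereas the TA nuclei came from single mice and 2 of the TA cytoplasm pools shared mouse 5. P-values therefore measure the spread between pools, some of which share an animal. The fibers were collected one by one, but cells attached to them were not removed by a sort.

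Ppargc1a and Ppargc1b code for PGC-1alpha and PGC-1beta, proteins that do not bind DNA themselves and instead enhance transcription by factors that do. Their partners include the PPARs, receptors for fatty acids that switch on genes of fatty acid use, and the estrogen-related receptors (ERRs), orphan receptors that switch on genes of respiration. Nrf1 acts on many genes of the respiratory chain, and Tfam carries the programme into the mitochondrion, where it packages and transcribes mitochondrial DNA. Nrip1, also called RIP140, counters this network as a corepressor. In muscle the network is best known for the oxidative character of slow fibers. These are more frequent in the soleus than in EDL and TA, which are mostly fast.

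For several genes the probes gave different answers, so the places they read are given first. Each probe is 60 bases long and its first 30 bases are shown in lower case, with positions in the mm9 build as the files list them. Whether a probe falls in a coding exon or an untranslated region is not given in the files. The 2 Ppargc1a probes read the minus strand of chromosome 5:
Ppargc1a A_51_P279038, chr5:51848928-51848987: ccccttcaaatggcagcatttccatgaaga
Ppargc1a A_55_P2011702, chr5:51846926-51846985: aggccaatgcagctaattttgacagctgca
The 3 Ppara probes read the plus strand of chromosome 15, and the first of them lies farthest toward the 3′ end:
Ppara A_55_P2071596, chr15:85637193-85637252: cctgtaagctgatgaatgtaaagagttaat
Ppara A_55_P2071601, chr15:85632534-85632593: aaatgctcctctaggcccctcctttggcag
Ppara A_55_P2055854, chr15:85632110-85632169: ctttgaaaacctacaagtcaaggtgtggcc
Of the 2 Esrrb probes on chromosome 12, the first is listed under the reference transcript and the second under a cDNA clone:
Esrrb A_55_P1954302, chr12:87862509-87862568: catgccctgggattatctcccatccagtcc
Esrrb A_52_P628212, chr12:87856069-87856128: caaaggacattgattattgctaaaggttag
The 3 Nrf1 probes on chromosome 6 also read the plus strand, the last of them from farthest upstream:
Nrf1 A_55_P2000077, chr6:30103035-30103094: ctcccgtgcgtgatagtgtatttaatgtgg
Nrf1 A_51_P201468, chr6:30101693-30101752: tggcagcgttttctagtctactgcagaatt
Nrf1 A_52_P376269, chr6:30066141-30066200: aagcaacatgggcgggaggatcttttatat
No probe of the 10 genes shared a run of 30 bases with any other probe of the array.

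Promoter sequence was read from RefSeq (GRCm38.p6) for 15 start sites of 9 of the 10 genes, from 250 bases before to 50 bases after each start. Elements were searched on both strands. The ERR element AAGGTCA was in none of these 15 windows and in 4.72% of all 32851 promoters. The palindromic element bound by NRF1 was in 1 window, that of Ppara, and in 6.23% of all promoters. The element bound by MEF2 factors was in 1 window, that of Esrrg, and in 1.68% of all promoters. The matches are shown in capitals with 10 bases on either side. A match is only a run of letters, and binding was not measured:
Ppara, chr15:85735735-85735764, plus strand: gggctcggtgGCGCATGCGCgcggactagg
Esrrg, chr1:187608974-187609003, plus strand: taaaactttgCTATTTATAGtctacgcccg

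Levels are log2 of the background-corrected signal after quantile normalization, and a difference of 1 on this scale is a factor of 2. A difference passed the test where the adjusted p of limma was under 0.05. The replicate spread was uneven. The median SD over all probes was 0.12 to 0.16 within the nuclear groups and 0.28 to 0.42 within the cytoplasmic groups, so that smaller differences passed among nuclei. The array labelled TA cytoplasm 1 stood apart from its group. Over 35528 probes it correlated at 0.956 to 0.961 with the EDL cytoplasm arrays and at 0.906 to 0.922 with the other two TA cytoplasm arrays, which correlated at 0.970 with each other. Cdh15, a cadherin of satellite cells, was at 6.43 on it, as on the EDL and soleus arrays with 6.28 to 7.06, against 12.5 and 11.5 on the other two and 11.9 to 12.2 in TA nuclei. Called differences that involve TA cytoplasm are therefore given with and without this library. EDL and soleus nuclei shared a slide, EDL and soleus cytoplasm shared another with TA cytoplasm 1, and TA nuclei shared one with TA cytoplasm 2. Fraction and slide cannot be told apart within EDL or soleus, nor can muscle and slide between TA nuclei and the other nuclei.

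The labels were checked against marker genes. All 5 muscle fiber markers were well above background on every array. The summed level of 6 slow-fiber genes was 16.5 to 17.2 in soleus and 10.68 to 13.8 in EDL and TA. That of 6 fast-fiber genes was 16.8 to 17.2 in soleus, 17.3 to 17.8 in EDL and 16.8 to 17.6 in TA. The soleus pools thus held much fast-fiber RNA as well. The 3 nuclear RNAs Malat1, Neat1 and Xist summed to 12.5 to 13.8 in nuclei and 9.34 to 10.97 in cytoplasm. Of the 5 satellite cell markers, 1 to 2 were above background on no array of a group. The summed level of these 5 was 6.93 to 8.19 in EDL and soleus and 11.98 to 12.3 in TA nuclei, and ran from 7.12 on TA cytoplasm 1 to 12.5 in TA cytoplasm. Cdh15 is 1 of these 5, and its own level was 11.9 to 12.2 in TA nuclei and up to 12.5 in TA cytoplasm. The high sums in TA therefore reflect mainly this 1 gene and not the set. The 5 Schwann cell markers summed to 10.95 to 11 in EDL nuclei, 9.63 to 9.74 in soleus nuclei and 9.54 to 9.71 in TA nuclei. In cytoplasm they summed to 7.98 to 9.28. Connective tissue markers summed to 14.2 to 15.3 in nuclei, lowest in TA, and to 12.9 to 14.6 in cytoplasm. Endothelial markers summed to 12.03 to 12.6 in nuclei and 10.2 to 12.04 in cytoplasm. Fat cell markers went the other way, with 8.05 to 8.46 in nuclei and 8.74 to 9.6 in cytoplasm. Macrophage markers ran from 14.9 to 15.4 in both fractions. The part of other cell types in the differences between muscles or fractions was not tested.

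**Figure D1:**
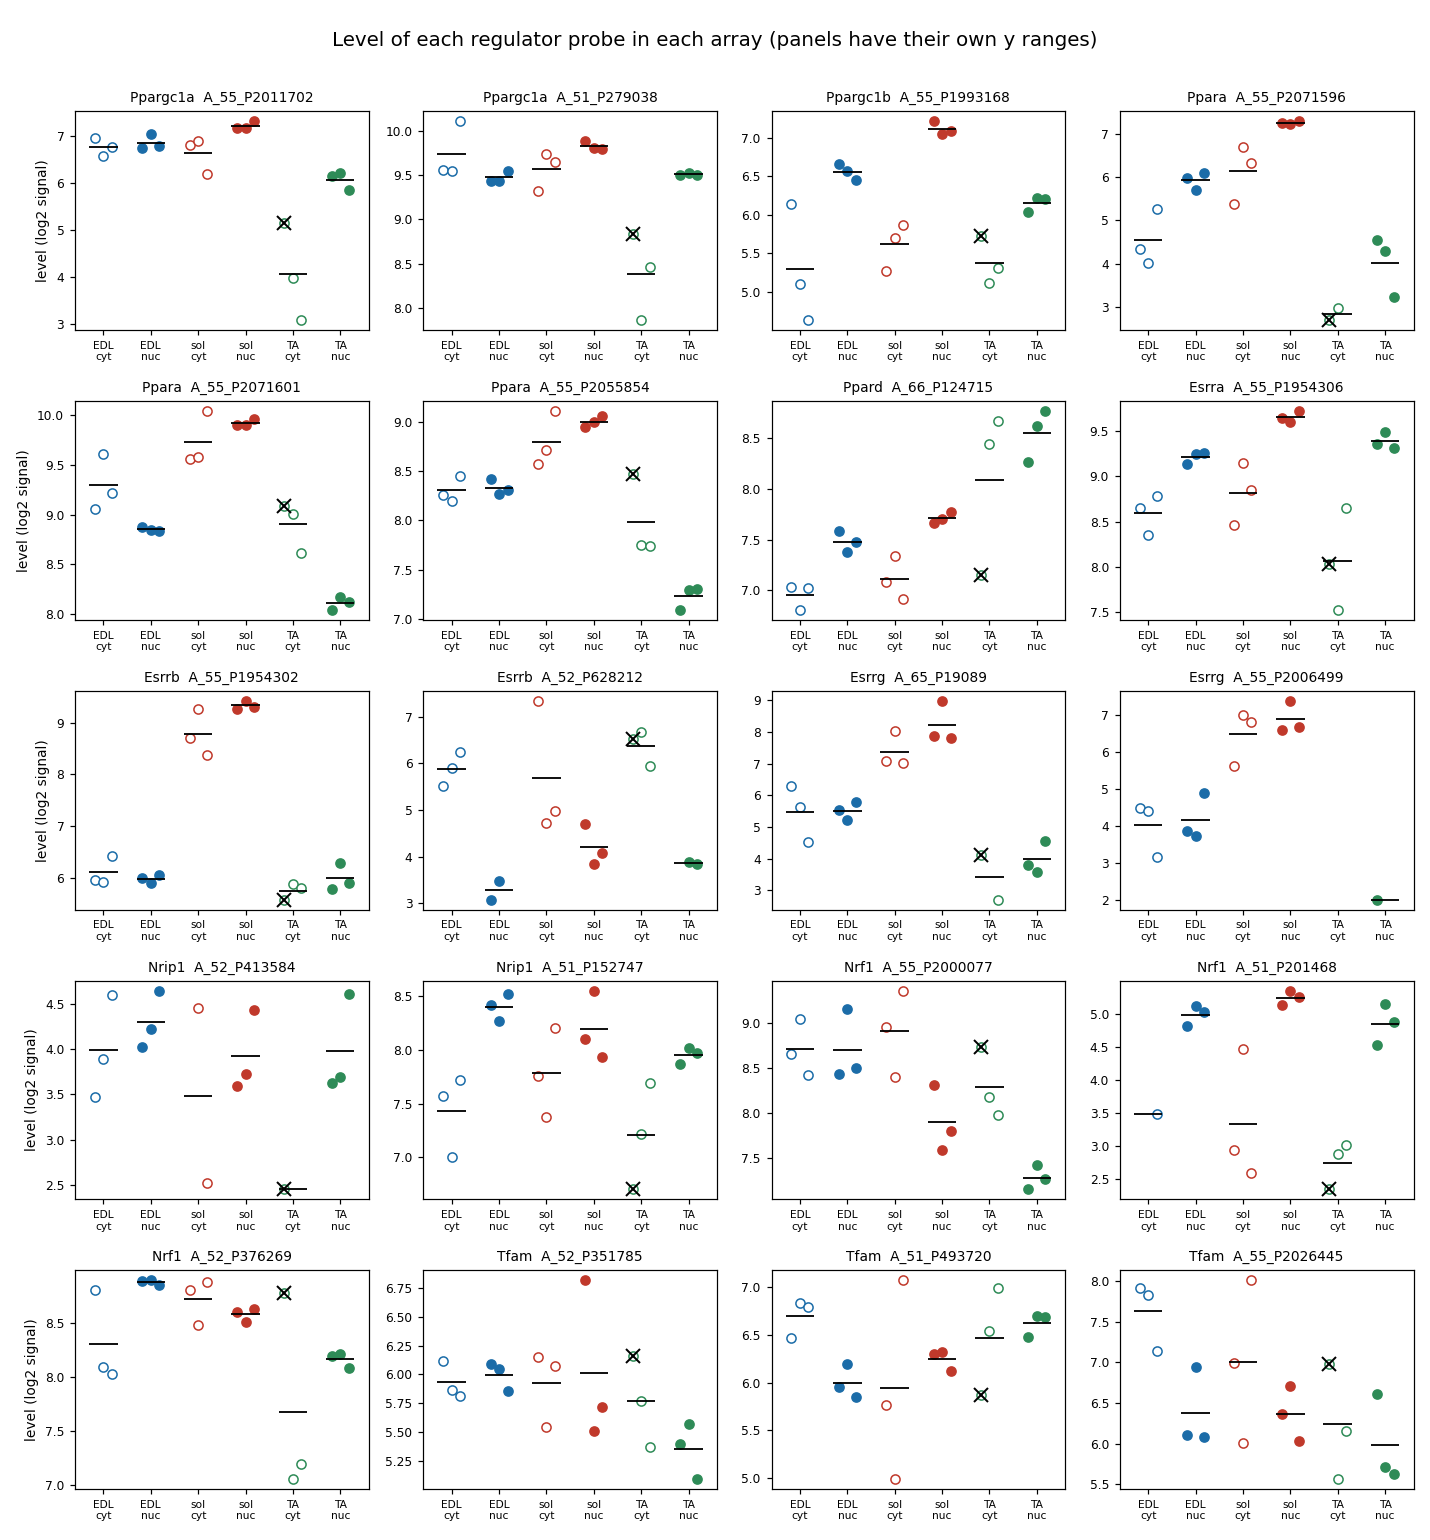
Log2 level of each probe of the 10 regulators on every array, by muscle, with filled points for nuclei, open points for cytoplasm, a black line at the group mean and a cross for the library labelled TA cytoplasm 1. Esrrb probe A_55_P1954302 lies at 8.37 or above on all 6 soleus arrays and at 6.43 or below on all the others.

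Soleus and EDL were compared first within nuclei, where both muscles lay on 1 slide and came from the same mice. In the fit of the 9 nuclear arrays, soleus nuclei held more RNA of Ppargc1b, Ppara, Esrra, Esrrb and Esrrg. Ppargc1a was higher at 1 of its 2 probes, and Esrrb and Esrrg lay farthest apart. With all 18 arrays in 1 fit the calls of Esrrb, Esrrg and Ppara A_55_P2071601 held. Those of Ppargc1b, Esrra and Ppargc1a were lost there (limma adjusted p = 0.628, 0.663 and 0.755), as were those of the other Ppara probes. Of 20 member probes tested, 10 passed, against 13.3% of all probes, with 9 higher in soleus and 1 lower. Among all probes, 7.87% were called higher in soleus and 5.45% lower. The median difference over the members was 0.35, beside 0.02 over all probes. The groups did not overlap for 15 of the 20 probes, as for 39.1% of all probes. The share of slow fibers in a pool and the level per fiber cannot be told apart in such samples.

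Esrrb, an orphan receptor best known from pluripotent and trophoblast stem cells, differed most. Probe A_55_P1954302 read 6.00, 5.90 and 6.05 on the EDL nuclear arrays and 9.27, 9.42 and 9.31 on the soleus nuclear arrays. The difference was 3.35 ± 0.13 (SE, n = 3 and 3), a 10.2-fold higher level in soleus with a limma adjusted p of 1.2e-05. The cytoplasm showed the same order, with 5.97, 5.93 and 6.43 in EDL and 8.71, 9.26 and 8.37 in soleus. This difference was 2.67 ± 0.31, 6.37-fold, with a limma adjusted p of 0.013. TA nuclei read 5.79, 6.29 and 5.91 and TA cytoplasm 5.58, 5.88 and 5.81, close to EDL in both fractions. TA minus soleus was -3.34 ± 0.13 in nuclei (limma adjusted p = 2.24e-06) and -3.02 ± 0.31 in cytoplasm (limma adjusted p = 0.00215), the latter -2.93 without TA cytoplasm 1 (limma adjusted p = 0.00123). Between TA and EDL nuclei the difference was 0.01, with a 95% interval of -0.29 to 0.32. The soleus and EDL cytoplasm call was lost without any 1 of the EDL cytoplasm arrays or without soleus cytoplasm 2, whereas the nuclear call held in each of the 6 repeats that left out an array.

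The second Esrrb probe, A_52_P628212, did not follow this pattern. EDL cytoplasm read 5.51, 5.89 and 6.23, soleus cytoplasm 7.34, 4.72 and 4.98, and TA cytoplasm 6.52, 6.67 and 5.94. In nuclei it was well above background on 1 of 9 arrays, in soleus. Soleus and EDL nuclei differed by 0.92 ± 0.27 at this probe (limma adjusted p = 0.0875). The large soleus excess of Esrrb was read by the probe of the reference transcript alone.

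Esrrg, an orphan receptor abundant in oxidative tissues, was also highest in soleus, with a larger spread, but was lower in TA than in EDL nuclei. Probe A_65_P19089 read 5.54, 5.22 and 5.78 in EDL nuclei, 7.86, 8.98 and 7.81 in soleus nuclei and 3.80, 3.59 and 4.57 in TA nuclei. The 3 groups did not overlap. Soleus exceeded EDL by 2.70 ± 0.37, 6.5-fold (limma adjusted p = 0.00311). TA minus EDL was -1.53 ± 0.37, 2.88-fold lower (limma adjusted p = 0.0103), and TA was 18.7-fold below soleus (limma adjusted p = 6.78e-05). The TA signal was well above background on 1 of the 3 nuclear arrays.
The second probe, A_55_P2006499, gave 3.86, 3.74 and 4.89 in EDL nuclei and 6.61, 7.39 and 6.68 in soleus nuclei, a difference of 2.73 ± 0.38 (limma adjusted p = 0.00793). It had a value on 1 TA nuclear array and on no TA cytoplasm array. Soleus nuclei were at least 23.3-fold above TA nuclei at this probe, where the bound sets the soleus mean against the detection floor or the probe's measured value on the TA arrays, whichever is higher. In cytoplasm, probe A_65_P19089 read 6.30, 5.63 and 4.52 in EDL and 7.07, 8.04 and 7.02 in soleus, a difference of 1.89 that did not pass.

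Ppara, the fatty acid receptor of oxidative tissues, was higher in soleus nuclei at all 3 of its probes. At probe A_55_P2071601 the EDL nuclei read 8.88, 8.84 and 8.84, the soleus nuclei 9.90, 9.90 and 9.97, and the TA nuclei 8.04, 8.17 and 8.12. Soleus was 1.07 ± 0.07 above EDL, 2.10-fold (limma adjusted p = 0.000106), and TA minus EDL was -0.74 ± 0.07 (limma adjusted p = 0.000124). Probe A_55_P2055854 gave the same order, with soleus 0.67 ± 0.09 above EDL (limma adjusted p = 0.00279) and TA minus EDL at -1.10 ± 0.09 (limma adjusted p = 6.12e-05). At the 3′ probe A_55_P2071596 the soleus nuclei read 7.26, 7.24 and 7.29, the EDL nuclei 5.97, 5.71 and 6.10, and the TA nuclei 4.54, 4.30 and 3.23. Soleus exceeded EDL by 1.34 ± 0.31 (limma adjusted p = 0.0262), a call lost in all 6 repeats without an array. It was also lost with the replicate number as a block (limma adjusted p = 0.0534). In that fit each block also held a TA nuclear array from another mouse. TA was 9.45-fold below soleus (limma adjusted p = 9.76e-05), although this probe was well above background on only 1 of the 3 TA nuclear arrays.
In cytoplasm the difference of soleus over EDL was 1.60 at the 3′ probe and did not pass at any Ppara probe.

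The coactivators differed less. Ppargc1b had 1 probe, A_55_P1993168 (chr18:61458222-61458281 of mm9, minus strand). It read 6.66, 6.58 and 6.45 in EDL nuclei, 7.21, 7.05 and 7.09 in soleus nuclei and 6.03, 6.22 and 6.21 in TA nuclei. The order was soleus over EDL by 0.56 ± 0.09 (limma adjusted p = 0.00811) with TA minus EDL at -0.41 ± 0.09 (limma adjusted p = 0.00861). For Ppargc1a, probe A_51_P279038 read 9.44, 9.44 and 9.55 in EDL nuclei and 9.88, 9.81 and 9.79 in soleus nuclei. Soleus was 0.35 ± 0.07 higher, 1.28-fold (limma adjusted p = 0.0173). This call was lost in 3 of 6 repeats without an array, namely without EDL nuclei 1, EDL nuclei 2 or soleus nuclei 1. It was also lost with the replicate number as a block (limma adjusted p = 0.0581). The other probe, A_55_P2011702, gave nearly the same difference, 0.36 ± 0.12, with a limma adjusted p of 0.101. TA nuclei read 6.14, 6.20 and 5.85 at this probe, below EDL nuclei with 6.74, 7.02 and 6.78 and soleus nuclei with 7.15, 7.17 and 7.30. TA minus EDL was -0.78 ± 0.12 (limma adjusted p = 0.00135) and TA minus soleus -1.14 ± 0.12 (limma adjusted p = 0.000187).

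Esrra, the ERR most tied to respiratory genes, had 1 probe, A_55_P1954306 (chr19:6985503-6985562). It read 9.13, 9.24 and 9.26 in EDL nuclei, 9.64, 9.60 and 9.72 in soleus nuclei and 9.35, 9.49 and 9.31 in TA nuclei. Soleus was 0.44 ± 0.08 above EDL (limma adjusted p = 0.0126). TA and EDL differed by 0.17, with a 95% interval of -0.02 to 0.36.
Ppard, the PPAR most widely expressed in muscle, had 1 probe, A_66_P124715 (chr17:28438298-28438357), and followed another order. It read 7.58, 7.38 and 7.47 in EDL nuclei, 7.66, 7.70 and 7.77 in soleus nuclei and 8.26, 8.62 and 8.76 in TA nuclei. TA was 1.07 ± 0.13 above EDL (limma adjusted p = 0.000424) and 0.83 ± 0.13 above soleus (limma adjusted p = 0.00132), whereas soleus and EDL differed by 0.23, which did not pass. With all 18 arrays in 1 fit the call between TA and soleus was lost (limma adjusted p = 0.0586).

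Nrf1 was the member called lower in soleus than in EDL nuclei, at 1 of its 3 probes. At probe A_52_P376269 the EDL nuclei read 8.89, 8.89 and 8.84, the soleus nuclei 8.60, 8.51 and 8.62, and the TA nuclei 8.19, 8.21 and 8.08. Soleus minus EDL was -0.30 ± 0.08, with a limma adjusted p of 0.0378, a call lost in all 6 repeats without an array. It was also lost with the replicate number as a block (limma adjusted p = 0.0954). TA minus EDL was -0.71 ± 0.08 (limma adjusted p = 0.000194). Probe A_55_P2000077 had TA at 7.15, 7.41 and 7.26 and EDL at 8.43, 9.16 and 8.50, with TA minus EDL at -1.42 ± 0.24 (limma adjusted p = 0.00192). At probe A_51_P201468 this difference was -0.13 and did not pass.
Nrip1 read 8.42, 8.27 and 8.52 in EDL nuclei, 8.11, 8.55 and 7.94 in soleus nuclei and 7.87, 8.02 and 7.97 in TA nuclei at probe A_51_P152747. TA minus EDL was -0.45 ± 0.16 (limma adjusted p = 0.0469), a call lost in all 6 repeats without an array and with the replicate number as a block (limma adjusted p = 0.075). Its other probe, A_52_P413584, was well above background on at most 2 arrays of any group.
Tfam had 3 probes on chromosome 10, and none separated soleus from EDL. Probe A_51_P493720 read 5.95, 6.20 and 5.85 in EDL nuclei, 6.30, 6.32 and 6.12 in soleus nuclei and 6.47, 6.70 and 6.69 in TA nuclei. TA was 0.62 ± 0.12 above EDL (limma adjusted p = 0.00368) and 0.37 ± 0.12 above soleus (limma adjusted p = 0.033), the latter lost in 5 of 6 repeats without an array, all but that without TA nuclei 1. Probe A_52_P351785 moved the other way by a value that did not pass, -0.64 with a 95% interval of -1.37 to 0.09.

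**Figure D2:**
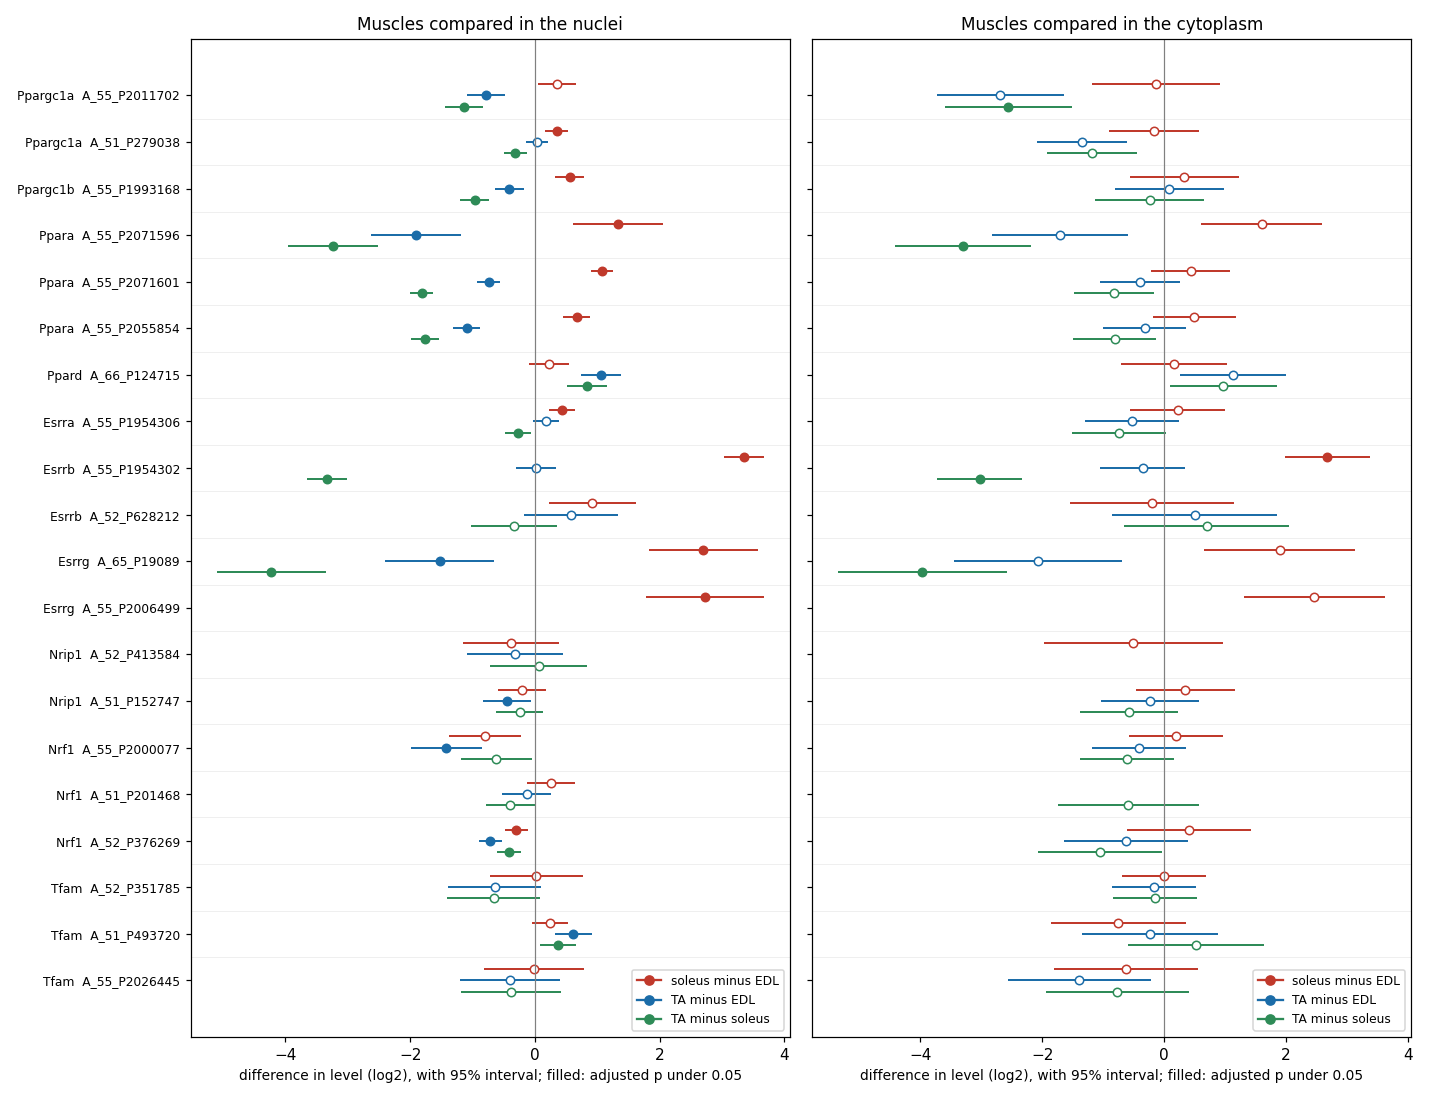
Differences between muscles on the log2 scale for each member probe, within nuclei and within cytoplasm, with 95% intervals; filled points have an adjusted p under 0.05. In soleus minus EDL nuclei, Esrrb probe A_55_P1954302 at 3.35 and both Esrrg probes at 2.70 and 2.73 lie farthest to the right.

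Counted over members, TA and EDL nuclei differed at 11 of 19 probes tested, 2 higher and 9 lower in TA, against 48.4% of all probes. TA and soleus nuclei differed at 12 of 19, 2 higher and 10 lower in TA, against 48.8% of all probes. The member shares lay near these backgrounds. The medians were -0.41 and -0.42, beside -0.11 and -0.10 over all probes.
Where the nuclear arrays of each muscle were averaged to 1 sample, the spread came from the cytoplasmic arrays alone. That setting can hardly separate nuclei at any probe, and its counts are given below beside those of all probes. With all 18 arrays in 1 fit, 4, 6 and 7 members passed in place of 10, 11 and 12, beside 1.56%, 17.4% and 19.6% of all probes. Between TA and EDL these were Esrrg A_65_P19089, Nrf1 A_55_P2000077, Ppard and all Ppara probes. Between TA and soleus they were Esrrb A_55_P1954302, Esrrg A_65_P19089, Ppargc1a A_55_P2011702, Ppargc1b and all Ppara probes.

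In cytoplasm, Esrrb A_55_P1954302 was the 1 member of 19 that passed between soleus and EDL, where 0.0902% of all probes did. No member of 17 passed between TA and EDL, where 0.0216% of all probes did; 6 members had an unadjusted p under 0.05, as did 16.4% of all probes. Between TA and soleus 4 of 18 passed, all lower in TA, against 4.31% of all probes. These were Esrrb A_55_P1954302, Esrrg A_65_P19089, Ppara A_55_P2071596 and Ppargc1a A_55_P2011702. Soleus was at least 13.3-fold above TA at the Esrrg probe (limma adjusted p = 0.0165) and at least 9.57-fold at the Ppara probe (limma adjusted p = 0.0148), as no TA cytoplasm array was well above background at either. Among these calls only that of Esrrb held in all 6 repeats without an array. That of Esrrg and that of Ppara were lost without soleus cytoplasm 2, and that of Ppargc1a without soleus cytoplasm 1 or 2 or TA cytoplasm 2 or 3. With the slide as a block no member passed between TA and either muscle.

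The library labelled TA cytoplasm 1 weighed on these cytoplasm values. Ppargc1a A_55_P2011702 read 6.95, 6.56 and 6.75 in EDL cytoplasm, 6.80, 6.88 and 6.19 in soleus cytoplasm, and 5.14, 3.98 and 3.09 in TA cytoplasm, where the first value is that library. TA minus EDL was -2.68 ± 0.46 with all arrays (limma adjusted p = 0.0932) and passed without it (limma adjusted p = 0.00123). Neither of the TA arrays left was then well above background, so that EDL was at least 9.32-fold higher. The other probe, A_51_P279038, read 9.55, 9.54 and 10.11 in EDL and 8.84, 7.87 and 8.46 in TA, which gave -1.35 with all arrays (limma adjusted p = 0.16) and -1.57 without it (limma adjusted p = 0.0158). Ppard read 7.03, 6.81 and 7.02 in EDL cytoplasm and 7.16, 8.44 and 8.67 in TA cytoplasm. Its difference was 1.13 with all arrays (limma adjusted p = 0.205) and 1.60 without that library (limma adjusted p = 0.00691). Nrf1 A_52_P376269 read 8.80, 8.09 and 8.02 in EDL and 8.77, 7.05 and 7.19 in TA, and reached -1.18 without it (limma adjusted p = 0.0471). In all, 4 members passed between TA and EDL without the library, where 11% of all probes did, and 6 between TA and soleus, where 15.3% did. The 6 were Esrrb A_55_P1954302, Ppard, Nrf1 A_52_P376269, Ppara A_55_P2055854 and both Ppargc1a probes, while the Esrrg probe and the 3′ Ppara probe then had too few values to be tested.

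The second question of the design is how each transcript divides between nuclei and cytoplasm. A difference here is between equal amounts of signal per array, not between amounts per fiber. In EDL 6 of 19 members tested passed, 4 higher in nuclei and 2 in cytoplasm, against 46.6% of all probes. In soleus 6 of 20 passed, again 4 and 2, against 40.3%. In TA 11 of 18 passed, 7 higher in nuclei and 4 in cytoplasm, against 52.7%. The share of members lay below that of all probes in EDL and soleus and near it in TA. The member medians were 0.07, 0.41 and 0.47, beside -0.05, -0.01 and -0.22 over all probes. Groups did not overlap for 10, 10 and 11 members tested, beside 66.3%, 56.5% and 60.2% of all probes.

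Ppargc1b was higher in nuclei in all 3 muscles. EDL cytoplasm read 6.14, 5.1 and 4.64, soleus cytoplasm 5.28, 5.71 and 5.87, and TA cytoplasm 5.72, 5.11 and 5.31, all below the nuclear values given above for the same muscle. The nuclear excess was 1.27 ± 0.30 in EDL (limma adjusted p = 0.00278), 1.50 ± 0.30 in soleus (limma adjusted p = 0.00112) and 0.77 ± 0.30 in TA (limma adjusted p = 0.0388). The TA call was lost in 5 of 6 repeats without an array, all but that without TA cytoplasm 1, where the value was 0.94 (limma adjusted p = 0.0246).
Esrra shared this direction. EDL cytoplasm read 8.65, 8.35 and 8.78, soleus cytoplasm 8.46, 9.14 and 8.84, and TA cytoplasm 8.03, 7.53 and 8.65. Nuclei exceeded cytoplasm by 0.62 ± 0.24 in EDL (limma adjusted p = 0.0497), 0.84 ± 0.24 in soleus (limma adjusted p = 0.0136) and 1.31 ± 0.24 in TA (limma adjusted p = 0.000425). The EDL call was lost in all 6 repeats without an array and with the mice as replicate block, and the soleus call without soleus cytoplasm 1. The TA value was 1.3 without TA cytoplasm 1 (limma adjusted p = 0.00156). Within the shared slide it was 1.86, against TA cytoplasm 2 alone, the lowest of the TA cytoplasm arrays at 7.53.

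Ppargc1a passed only in TA. Nuclei exceeded cytoplasm there by 2.00 ± 0.36 at probe A_55_P2011702, 3.99-fold (limma adjusted p = 0.000342), and by 1.12 ± 0.23 at probe A_51_P279038, 2.18-fold (limma adjusted p = 0.000788). In EDL the differences were 0.09 and -0.26, and in soleus 0.58 and 0.26. At the second probe TA nuclei, with 9.50, 9.52 and 9.50, lay near EDL nuclei, whereas TA cytoplasm lay below the cytoplasm of both other muscles. At the first, TA nuclei lay below the nuclei of both other muscles, as given above, and TA cytoplasm was well above background on 1 of 3 arrays. Without TA cytoplasm 1 nuclei were at least 5.79-fold higher at the first probe (limma adjusted p = 1.22e-05), where no TA cytoplasm array left was well above background, and 1.35 higher at the second (limma adjusted p = 0.000214). Within the slide that TA nuclei shared with TA cytoplasm 2 the differences were 2.09 and 1.64, the first against an array not well above background. Whether the nuclear excess differed between the muscles was tested as an interaction, in which no member of 17 passed, and 1.57% of all probes did. An unadjusted p under 0.05 was found for 5 members and for 16.7% of all probes. The smallest adjusted p was 0.0773, for probe A_51_P279038. Without TA cytoplasm 1 both Ppargc1a probes passed (limma adjusted p = 0.0199 and 0.00672), with 3.96% of all probes.

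**Figure D3:**
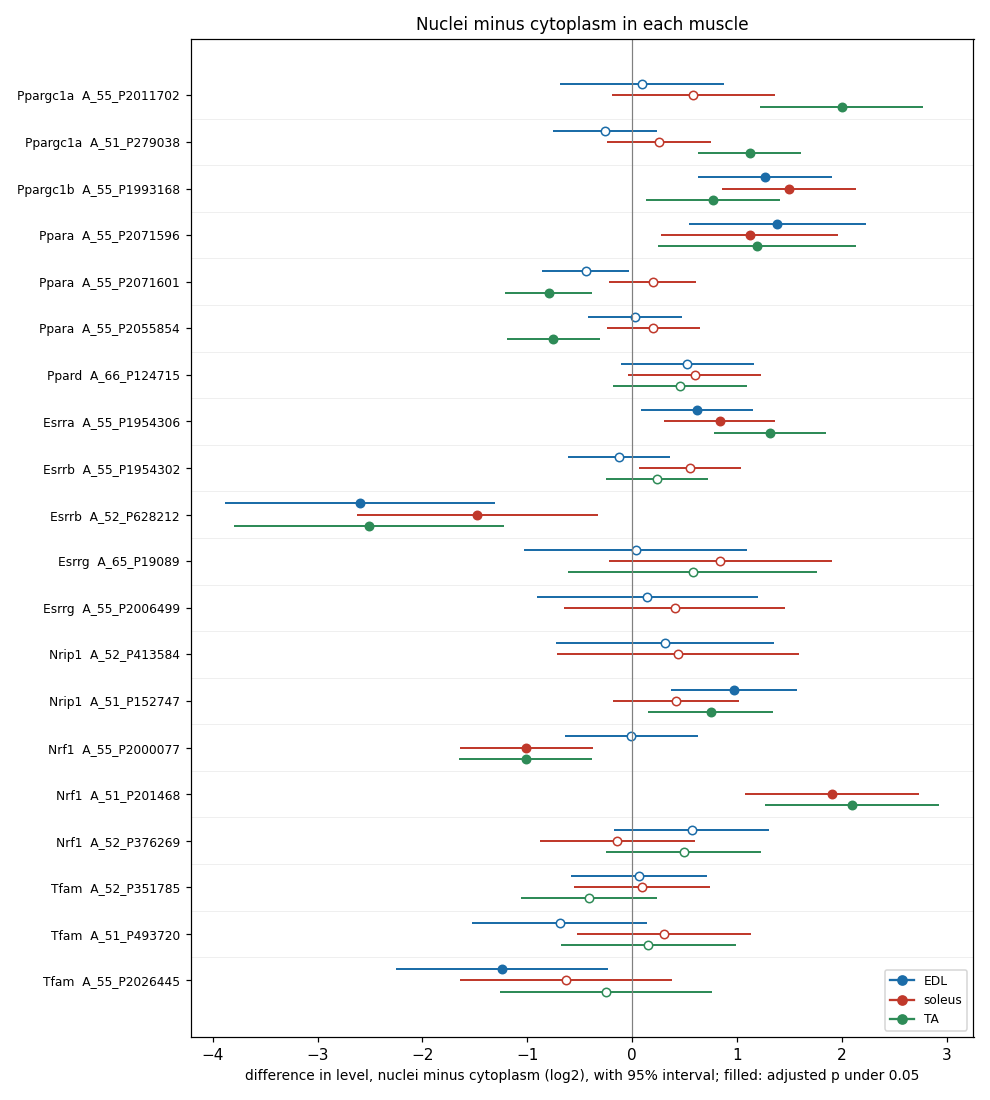
Nuclei minus cytoplasm on the log2 scale for each member probe in EDL, soleus and TA, with 95% intervals; filled points have an adjusted p under 0.05. Ppargc1b and Esrra lie to the right of 0 in each muscle, and Esrrb probe A_52_P628212 to the left, at -2.60, -1.48 and -2.51.

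Probes of the same gene split between the fractions for Esrrb, Ppara and Nrf1. Esrrb probe A_52_P628212 was higher in cytoplasm in all 3 muscles, by at least 5.77-fold in EDL (limma adjusted p = 0.00299) and at least 5.68-fold in TA (limma adjusted p = 0.00303), as no nuclear array of these muscles was well above background. The TA call held without TA cytoplasm 1 (limma adjusted p = 0.0102). In soleus the difference was -1.48 ± 0.53 (limma adjusted p = 0.0399). The reference-transcript probe A_55_P1954302 gave -0.13, 0.55 and 0.24 in EDL, soleus and TA, none of which passed. At the clone probe the soleus call was lost without soleus cytoplasm 1, which read 7.34, and without soleus nuclei 2 or 3, and the EDL call with normexp background correction.

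Nrf1 probe A_51_P201468 was well above background on all 9 nuclear arrays and on no cytoplasmic array. It read 4.82, 5.11 and 5.02 in EDL nuclei, 5.13, 5.35 and 5.25 in soleus nuclei and 4.53, 5.14 and 4.88 in TA nuclei. The nuclear excess was at least 3.6-fold in soleus (limma adjusted p = 0.00159) and at least 4.28-fold in TA (limma adjusted p = 0.000496). The excess in TA was at least 3.73-fold without TA cytoplasm 1 (limma adjusted p = 0.00281). EDL was not tested, with a cytoplasmic value on 1 array, and its bound was at least 2.82-fold. Probe A_55_P2000077, which lies on the 3′ side, went the other way. It read 8.95, 8.40 and 9.36 in soleus cytoplasm against 8.31, 7.58 and 7.79 in soleus nuclei, and 8.73, 8.17 and 7.97 in TA cytoplasm. Nuclei minus cytoplasm was -1.01 ± 0.29 in soleus (limma adjusted p = 0.0133) and -1.02 ± 0.29 in TA (limma adjusted p = 0.00906), whereas EDL differed by -0.01. The TA value was -0.80 without TA cytoplasm 1 (limma adjusted p = 0.0431). The soleus call was lost without soleus cytoplasm 3 or soleus nuclei 2. With no scaling between arrays the soleus value was 0.23, in the opposite direction. The upstream probe A_52_P376269 passed in no muscle. In TA it read 8.19, 8.21 and 8.08 in nuclei, and its difference of 0.49 with all arrays was 1.04 without TA cytoplasm 1 (limma adjusted p = 0.00126).

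For Ppara, the 3′ probe A_55_P2071596 was higher in nuclei and the upstream probes were not. Its cytoplasm read 4.33, 4.02 and 5.27 in EDL and 5.38, 6.71 and 6.33 in soleus. Nuclei exceeded cytoplasm by 1.39 ± 0.39 in EDL (limma adjusted p = 0.00965) and 1.12 ± 0.39 in soleus (limma adjusted p = 0.0331), the latter lost in 5 of 6 repeats without an array, all but that without soleus cytoplasm 2. In TA, where no cytoplasmic array was well above background, the nuclear excess was at least 2.21-fold (limma adjusted p = 0.0328) and passed in 2 of 8 other settings. It could not be tested without TA cytoplasm 1. Probe A_55_P2071601 read 9.09, 9.01 and 8.62 in TA cytoplasm, above the TA nuclei, with a difference of -0.79 ± 0.19 (limma adjusted p = 0.00268). Probe A_55_P2055854 gave -0.75 ± 0.20 in TA (limma adjusted p = 0.00629). Both upstream probes lay between -0.44 and 0.20 in EDL and soleus and did not pass there. Without TA cytoplasm 1 they gave -0.70 and -0.51 in TA and still passed.

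Nrip1 probe A_51_P152747 was 0.97 ± 0.28 higher in EDL nuclei (limma adjusted p = 0.00965) and 0.75 ± 0.28 higher in TA nuclei (limma adjusted p = 0.0324), the latter 0.50 without TA cytoplasm 1 (limma adjusted p = 0.143) and not called with the replicate block (limma adjusted p = 0.054). The EDL call was lost without EDL cytoplasm 2, and the TA call in 5 of 6 repeats, all but that without TA cytoplasm 3. Tfam probe A_55_P2026445 had a difference of -1.25 ± 0.47 in EDL (limma adjusted p = 0.0407), a call lost in 4 of 6 repeats without an array (those without EDL cytoplasm 1, EDL cytoplasm 2, EDL nuclei 1 and EDL nuclei 3). The other Tfam probes, Ppard and the Esrrg probes did not pass in any muscle. The differences of Ppard were 0.53, 0.60 and 0.46, and that in TA was -0.01 without TA cytoplasm 1.

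A setting with the nuclear arrays of a muscle averaged to 1 sample was run because the nuclear replicates were so close. It takes the spread from the cytoplasmic arrays alone, so that fewer differences can pass at any probe. Its counts between the fractions are given below beside those of all probes. Among probes with repeated spots, the spread of spot means between replicates was set against that expected from the scatter of the spots averaged. It was 2.18 to 2.86 times as large among nuclei and 4.57 to 9.68 times among cytoplasms. The scatter of single spots, 0.107 to 0.120 in nuclei, was larger in each nuclear group than the spread of these means, 0.051 to 0.107. The 20 member probes had 22 spots in all, so the ratio does not carry over to them. Within the slide shared by TA nuclei and TA cytoplasm 2, 7 members passed in place of 11, and 47.9% of all probes. Ppargc1b, Nrip1, Nrf1 A_55_P2000077, Ppara A_55_P2071596 and Ppara A_55_P2055854 no longer passed there, and Nrf1 A_52_P376269 did. Without TA cytoplasm 1, 10 members passed between the TA fractions, with 51.3% of all probes.

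Genes named in the literature around these regulators were then counted in 5 lists. The lists were drawn up with earlier results of these data known, and hold partners and coregulators of the 10 members, PPAR targets, targets of the ERRs and NRF1, genes of mitochondrial DNA transcription and upkeep, and muscle genes that respond to PGC-1alpha. For each gene 1 probe was used.

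Soleus over EDL nuclei, the PPAR targets stood out by count. Of 23 tested, 16 were higher in soleus and none lower, with a median of 1.02. Among all probes 7.87% were higher and 5.45% lower, with a median of 0.02. Acot1, an acyl-CoA thioesterase, was 2.32 ± 0.12 higher (limma adjusted p = 3.3e-05), Pdk4, a kinase that restrains glucose oxidation, 2.03 ± 0.21 (limma adjusted p = 9e-04), and Lpl, the lipase of the capillary wall, 1.78 ± 0.10 (limma adjusted p = 6.2e-05). Of the 15 PGC-1alpha-responsive genes, 9 were higher and 1 lower, with a median of 0.40. They include the slow troponins Tnni1 at 5.68 ± 0.15 and Tnnc1 at 4.36 ± 0.10, which are slow-fiber genes themselves, and Ldhb, a lactate dehydrogenase subunit, at 2.19 ± 0.12. Gpx1, a glutathione peroxidase, was the 1 lower, at -0.61 ± 0.15.
The respiratory targets moved little. Of the 24 ERR and NRF1 targets, 3 were higher and 1 lower, with a median of 0.18, and the highest was Cox4i1 at 0.45 ± 0.10. Idh3a, which codes for a subunit of an enzyme of the citric acid cycle, was at -0.62 ± 0.10. No gene of mitochondrial DNA upkeep passed out of 16. Of 24 partners, Perm1, a muscle regulator tied to PGC-1 and ERRs and listed as 2310042D19Rik, was 1.14 ± 0.08 higher in soleus, and the retinoid receptor Rxrg had a difference of -0.995 ± 0.26. In cytoplasm Tnnc1 was the 1 gene of 99 tested that passed, where 0.0902% of all probes did. The median difference there was 1.08 for the PPAR targets, of which none passed, and 0.38 for the PGC-1alpha-responsive genes. The other lists had medians of 0.04 to 0.10, beside -0.08 over all probes.

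Between the fractions, the listed genes that passed were mostly higher in nuclei. In EDL 47 of 101 passed, in soleus 41 of 100 and in TA 50 of 99, near the 46.6%, 40.3% and 52.7% of all probes, but those called lower in nuclei numbered few. No ERR or NRF1 target, mitochondrial DNA gene or PGC-1alpha-responsive gene was lower in nuclei in any of the 3 muscles, while among all probes 26.5%, 21.7% and 33.5% were. Of the ERR and NRF1 targets 11, 12 and 14 of 24 were higher, led over the muscles by Ndufa4 with a mean difference of 1.08 and Uqcrc2 with 0.82, subunits of the respiratory chain. With each array scaled to its 75th percentile, 3 of them passed in soleus. Polg2 and Polg, subunits of the mitochondrial DNA polymerase, had mean differences of 2.58 and 1.46. Among the partners Perm1 led with 1.54, ahead of the coactivator Ncoa1 and the corepressor Ncor1 with 1.34 each. Angptl4, a secreted inhibitor of lipoprotein lipase, was a PPAR target higher in cytoplasm in each muscle, with a mean difference of -0.73. Without TA cytoplasm 1, 54 of the 99 listed genes passed in TA.

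TA nuclei lay below soleus nuclei for 20 of 24 ERR and NRF1 targets and above for none, and for 13 of 15 PGC-1alpha-responsive genes and above for 1. The same counts were 16 and 4 of 23 for the PPAR targets, 15 and 5 of 24 for the partners and 8 and 2 of 15 for the mitochondrial DNA genes. Among all probes 29.3% were lower and 19.4% higher in TA. This comparison runs across slides.

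**Figure D4:**
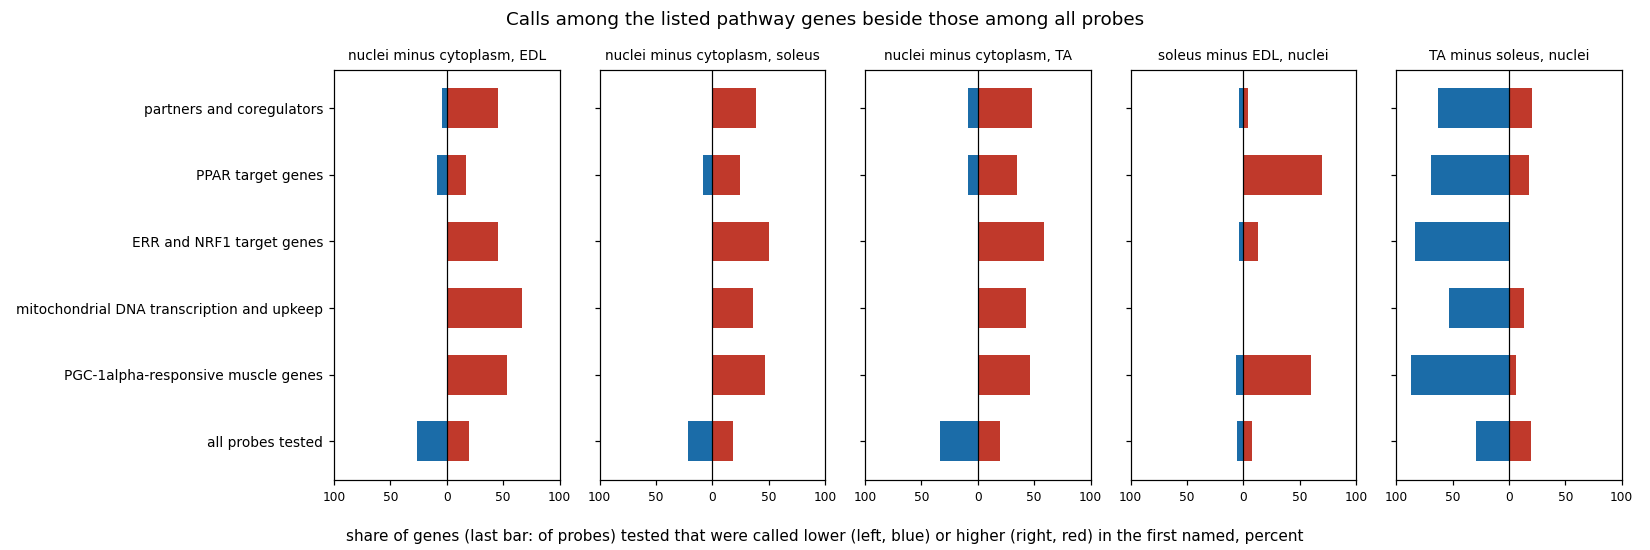
Share of the genes of each list, in percent of those tested, that were lower (left, blue) or higher (right, red) in the first named group of 5 comparisons, with all probes tested as the last bar. PPAR targets and PGC-1alpha-responsive genes reach farthest to the right in soleus minus EDL nuclei, with 16 of 23 and 9 of 15 genes.

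Probes with levels most like those of Ppargc1a over the 18 arrays were ranked by Pearson's r at probe A_51_P279038 among 33936 probes, as a description over arrays that share slides and mice. The closest were a lincRNA region on chromosome 12 (r = 0.964), the kinase inhibitor gene Camk2n1 (0.925), 1700025G04Rik (0.922), Herpud1 (0.919) and Gm4963 (0.917).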

How the data were processed

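The authors extracted spot intensities with Agilent Feature Extraction 10.7.3.1, which subtracted background within each array, and the deposited files hold these processed signals, 1 colour per array. Spots not positive and significant were set to missing, as in the study's methods, and so were spots marked as outliers. Signals were put on the log2 scale and quantile-normalized over the 18 arrays (limma 3.58.1, R 4.3.3), and spots of a probe were averaged. Probes with values on at least 2 of 3 arrays per group were tested with lmFit and eBayes, 2-sided, with Benjamini-Hochberg adjustment over all probes tested and a threshold of 0.05. Fractions were compared on all 18 arrays, and muscles within each fraction on 9. A group with no array well above background gave a bound in place of a fold, in which each dim array counted at the probe's level or at the array's detection floor (the faintest signal flagged as well above background), whichever was higher, and an array without a value at the group's highest. The member genes and lists were chosen with earlier results of these data known. Named list genes were the leading called genes of each list.

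The study used Significance Analysis of Microarrays for fractions, kept here as an alternative, since 3 arrays per group leave few permutations. Other alternatives were scaling, background correction, filters, slide, replicate block and single arrays left out. Scripts were tested on simulated data. EDL and soleus replicate numbers name the same mice in both fractions. Over 35528 probes, deviations of same-numbered nuclei and cytoplasm correlated at -0.02 to 0.04 in these muscles. Those of EDL and soleus within a fraction correlated at -0.11 to 0.10. In TA the values were -0.09 to 0.13, the highest for replicate 3, whose nuclei and cytoplasm came from different mice. The number of arrays limits the precision.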

Additional observations from a re-analysis of the deposited data

How the results depend on the processing

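Counts of member probes that passed, given in the order EDL, soleus and TA between the fractions (6, 6 and 11), then soleus to EDL, TA to EDL and TA to soleus in nuclei (10, 11 and 12) and in cytoplasm (1, 0 and 4), and the interaction (0), moved as follows. With each muscle's nuclear arrays taken as 1 sample, all the counts between fractions and between nuclei were 0, while 7.23%, 3.23% and 10% of all probes passed between fractions and 0%, 0% and 0.0436% between nuclei. With no scaling between arrays soleus gave 16 between fractions (62.1% of all probes) and the interaction 6 (36.4%), and the median of all probes shifted to 0.35, 0.96 and -0.16 between fractions and to 0.32, -0.40 and -0.69 between nuclei, so that 92.3% of the calls in soleus lay higher in nuclei in place of 46.3% (33.9% with 75th-percentile scaling), 69.5% in EDL in place of 43.0%, and 93.9%, 20.2% and 9.67% between nuclei in place of 59.1%, 40.0% and 39.8%. Without scaling, Nrf1 A_55_P2000077 and A_52_P376269 turned to 0.23 and 1.10 between the soleus fractions, Nrf1 A_52_P376269 to 0.035 in soleus minus EDL nuclei, and Tfam A_51_P493720 to -0.24 in TA minus soleus nuclei. Among spots well above background 7 passed between the TA fractions (54.8% of all probes) and 1 between TA and soleus cytoplasm (7.58%). The slide shared in TA gave 7 (47.9%) and Significance Analysis of Microarrays 2 there (23.6%). With all arrays in 1 fit the counts between muscles were 4, 6 and 7 in nuclei (1.56%, 17.4% and 19.6% of all probes) and 2, 5 and 10 in cytoplasm (1.42%, 12.4% and 28.6%). Values on 3 of 3 arrays gave 2 (4.72%), and the slide as a block 0 (0.0986%), between TA and soleus cytoplasm. The interaction gave 1 with 75th-percentile scaling (2.58%), 2 with normexp (3.65%) and 2 with no filter on low values (2.37%). The cause was not tested.

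With 1 array left out, the counts between fractions ran from 3 to 5, 3 to 7 and 7 to 11. The shares of all probes ran from 39.3% to 44.3%, 31% to 48% and 46% to 56.9%. Nuclei gave 7 to 8, 10 to 10 and 10 to 12, beside 7.88% to 9.13%, 42.6% to 46.3% and 42.6% to 46.5%. Cytoplasms gave 0 to 1, 0 to 4 and 1 to 6, beside 0.0182% to 0.064%, 0% to 11% and 0.25% to 15.3%. The interaction gave 0 to 2, beside 0.261% to 4.32%. With the replicate block the counts were 5, 6 and 10, then 7, 10 and 12, then 1, 0 and 4, and 0. No count moved there by over 1.5 times. The shares of all probes were 43%, 36.1% and 49.7%, then 9.24%, 44.8% and 45.4%, then 0.0792%, 0.00647% and 1.45%, and 0.0248%. Of the listed pathway genes, 82 in EDL and 90 in soleus passed between fractions and 55 between soleus and EDL nuclei without scaling, and 64 between the soleus fractions and 2 between soleus and EDL cytoplasm among spots well above background, in place of 47, 41, 32, 41 and 1. The shares of all probes in these settings were 51%, 62.1%, 26.2%, 42.6% and 0.174%. Over single differences, 434 called values held under the other settings, 112 fell short and 3 reversed. With 1 array left out, 282 called values held and 74 fell short. Of the values not called, 76 passed in the same direction and 1 in the opposite direction under the other settings. With 1 array left out, 18 of them passed. Probes near background, such as Nrip1 A_52_P413584 and Esrrg A_55_P2006499 in TA, limit what can be tested. The deposited matrix was not run, as none of the member probes has a value there.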
